A study of Bos taurus with 16 samples.

Results

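The nuclear genes for subunits of the mitochondrial respiratory chain and ATP synthase were followed in day 7.5 bovine blastocysts from cows on different oilseed diets. Members were taken by gene symbol: array probes annotated with exactly 1 symbol that begins with NDUFA (but not NDUFAF), NDUFB, NDUFC, NDUFS, NDUFV, UQCR, COX4I, COX5, COX6, COX7, COX8 or ATP5, or that is SDHA, SDHB, SDHC, SDHD or CYC1. This gave 125 probes of 43794, and 80 genes of the 15216 that had a symbol. Complex I held 36 genes, complex II 4, complex III 8, complex IV 16 and ATP synthase, complex V, 16. The rule used no measured value. A single probe stood for 48 of the genes, and 32 genes had 2 to 4 probes whose values were averaged.

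Non-lactating Holstein cows ate rolled oilseeds for 35 days or more, then were superstimulated with follicle-stimulating hormone and inseminated with semen of 1 bull. The control diet was canola (CAN, a source of oleic acid), fed to 8 cows. Sunflower (SUN, a source of linoleic acid, fed to 7 cows) and flax (FLX, a source of α-linolenic acid, fed to 8) were set against it. All groups thus received oilseed and the same hormone treatment, and no unsupplemented diet was part of the comparison. Embryos of similar stage were pooled, their RNA was amplified, and each FLX or SUN pool was hybridised with a CAN pool on 2 arrays with exchanged dyes. Each diet had 4 such replicate pools. FLX and SUN pools of the same number were set against a CAN sample of that number, assumed to be the same RNA, so both comparisons share their 4 control samples. The cows behind each pool are not given in the sources used here.

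Complexes I to IV pass electrons from NADH and succinate to oxygen and, except for complex II, pump protons across the inner mitochondrial membrane. ATP synthase lets the protons flow back and makes ATP. The blastocyst is a stage of rising oxygen use, in which the trophectoderm spends much ATP on pumping ions to fill the blastocoel. The genes studied here are nuclear. Subunits encoded by mitochondrial DNA were represented by 0 of the 26 symbols searched.

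Each value is a log2 ratio of the diet over CAN, so 0 means equal levels, a negative value means less RNA in the FLX or SUN pool, and 1 means a doubling. The deposited values were ratios, so neither the level of a subunit nor the tissue itself could be checked against marker levels. Base 2 was assumed, and the likely direction of the deposited ratio, Cy5 over Cy3, was used. With the other direction every sign turns. In pooled embryos, fewer cells of a type and less RNA per cell cannot be told apart. Array medians over all probes lay between −0.0139 and 0.00947. Precision is limited by the small number of arrays. Spot intensities were not analysed here, so how far each probe stood above background is unknown.

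In FLX embryos the subunit median lay slightly below 0, within the spread between pools. By their mean ratio, 54 of the 80 were negative and 26 positive (50.8% of all genes were positive), with a median of −0.041 (SD of the 4 replicate medians 0.15), against 0.001 over all genes. Its sign turned without FLX replicate 1, to 0.0022, and on arrays with the diet pool in Cy3, to 0.036. Limma called 0 of the 80 at a false discovery rate (FDR) of 0.05, adjusted over all genes, and 0 of all genes (0%). The FLX adjusted p was 1.00 for every subunit. Subunits at an unadjusted p under 0.05 numbered 4 of 80 (5%), against 3.15% of all genes. The negative ones were NDUFS8, NDUFA10 and SDHA, where 1.49% of all genes were negative at that p, and the positive one was ATP5F1B, where 1.67% were positive. The sign was negative in all 4 FLX replicates for 6 subunits (5.36% of all genes), namely NDUFA10, NDUFA8, NDUFS6, SDHA, COX5B and COX6B1. It was positive in all 4 for ATP5F1B alone (5.15% of all genes).

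In SUN embryos 46 subunits were negative and 34 positive by mean (51% of all genes were positive), with a median of −0.017 (SD of replicate medians 0.18), against 0.003 over all genes. Here the sign turned without SUN replicate 1 (0.025) or 2 (0.017) and with the diet in Cy3 (0.035). Limma called 0 of the 80 at the FDR, with adjusted p from 0.799 to 0.999, and 0% of all genes. Unadjusted p under 0.05 was reached by 8 of 80 subunits (10%), against 6.18% of all genes. The 5 positive ones were COX8A, COX8B, ATP5F1B, NDUFV3 and NDUFA9 (3.34% of all genes), and the 3 negative ones NDUFV1, NDUFA10 and NDUFS6 (2.85%). A positive sign in all 4 SUN replicates was seen for 10 subunits (6.55% of all genes), and a negative sign in all 4 for NDUFV1 only (6.85%). The 10 were SDHC, UQCRH, COX8A, COX8B, NDUFA9, NDUFV3, ATP5F1B, ATP5MC1, ATP5MC2 and ATP5PF.

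**Figure D1:**
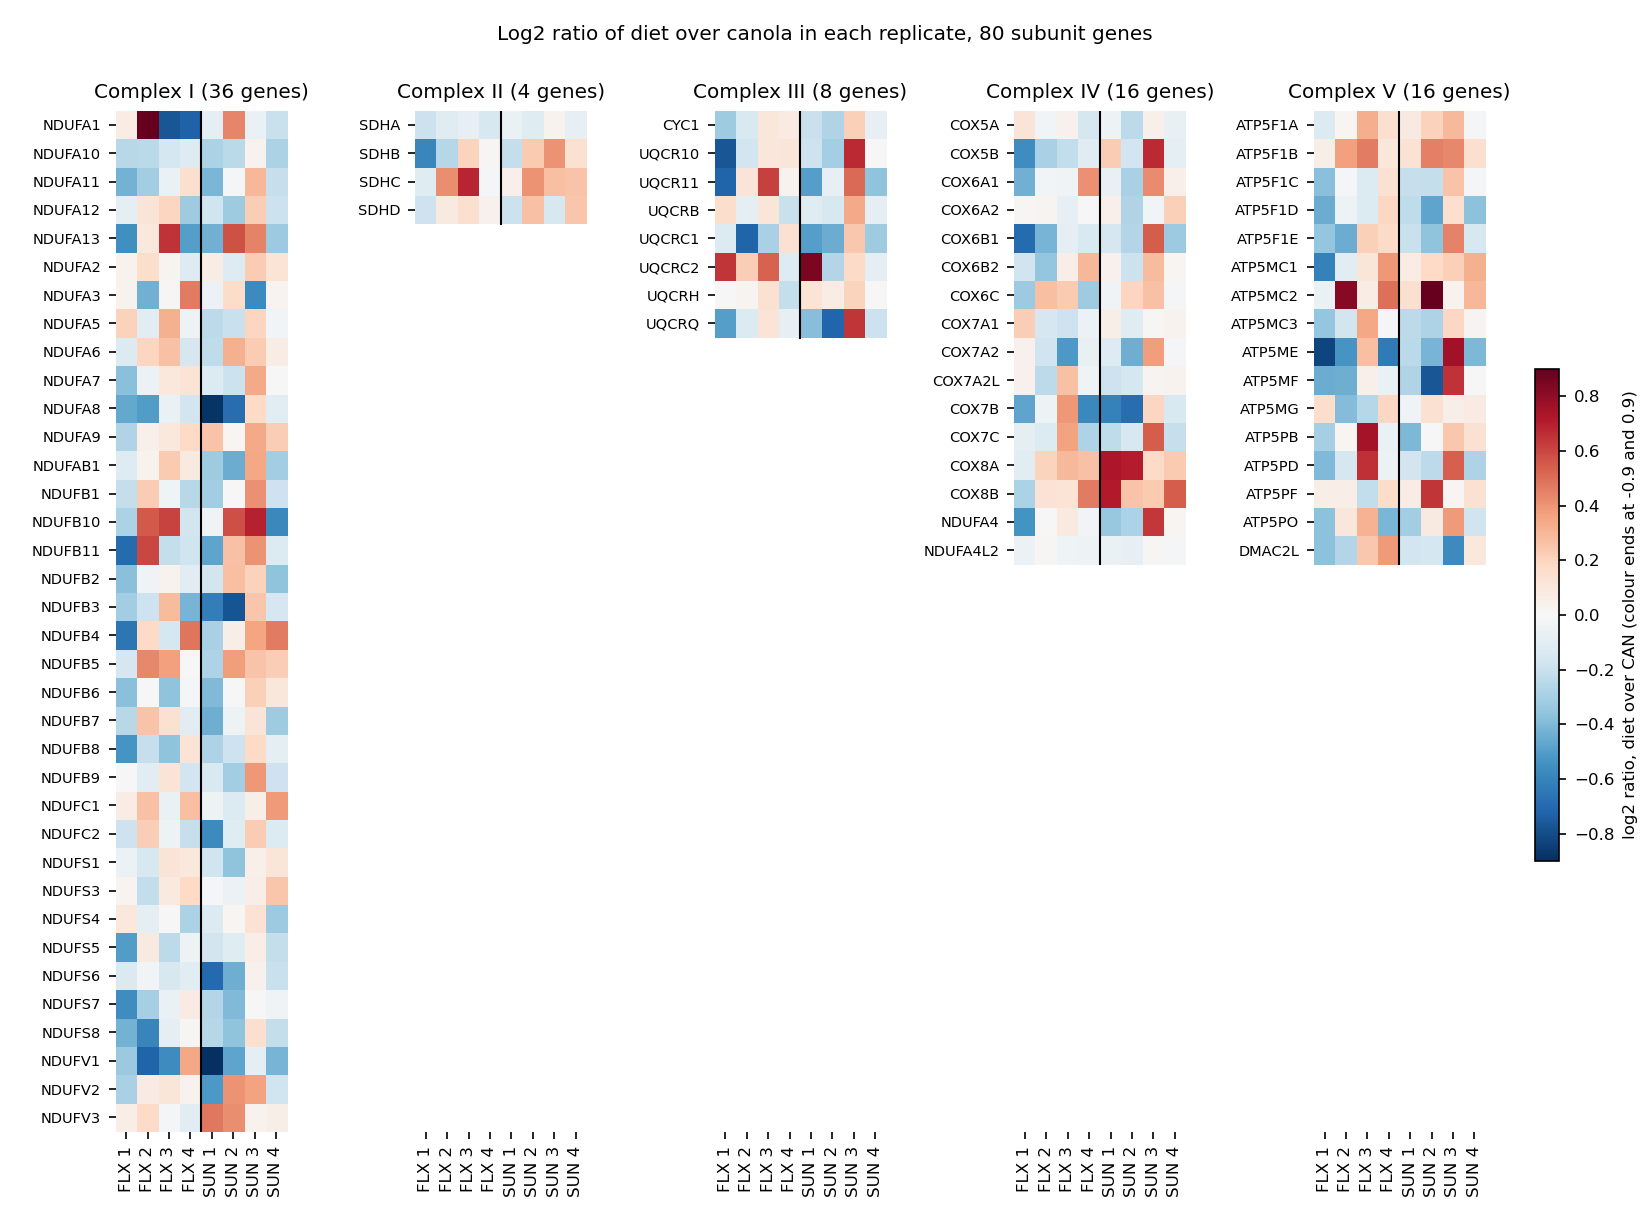
Log2 ratio of diet over CAN for the 80 subunit genes (rows, by complex) in the 4 FLX and 4 SUN replicates (columns), each the mean of 2 dye-swapped arrays. Blue is lower and red higher than CAN. FLX 1 and SUN 1 are mostly blue, with 61 and 63 of 80 genes negative, and SUN 3 is mostly red, with 6 negative. Of all 15216 genes, 7138 to 7929 were negative on any single array.

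Within complex I, the 6 measured core subunits, most of which carry redox centres of the peripheral arm, had medians of −0.12 in FLX and −0.13 in SUN. NDUFV1 binds flavin mononucleotide and takes the electrons from NADH. It read −1.13, −0.47, −0.084 and −0.42 in SUN replicates 1 to 4, a mean of −0.53 ± 0.44 (SD, n = 4, as for all values in this form) or 1.44-fold below CAN. All SUN pools lay below 0, with pool 1 far below the rest. In FLX it read −0.33, −0.72, −0.57 and 0.35, with 3 pools low and pool 4 high. Limma's unadjusted p for NDUFV1 was 0.0275 in SUN and 0.144 in FLX, with adjusted p of 0.799 and 1.00.

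NDUFS7 and NDUFS8 hold the iron-sulphur clusters nearest the ubiquinone site. NDUFS8 read −0.43, −0.59, −0.081 and 0.013 in FLX (−0.27 ± 0.29) and −0.26, −0.36, 0.14 and −0.22 in SUN (−0.17 ± 0.22). Its FLX values were low in pools 1 and 2 and near 0 in the others, and limma gave an unadjusted p of 0.0435 there. NDUFS7 stood at −0.21 ± 0.28 in FLX and −0.17 ± 0.19 in SUN, and each of its 4 probes had a negative mean in both diets. Its sign depended on the dye, however. With the diet pool in Cy5 it averaged −0.65 in FLX and −0.38 in SUN, and with it in Cy3 0.23 and 0.033. The remaining core subunits were close to 0: NDUFS1, which carries further iron-sulphur clusters, stood at 0.0036 ± 0.12 and −0.098 ± 0.21, NDUFS3 at 0.018 ± 0.17 and 0.061 ± 0.13, and NDUFV2 at −0.020 ± 0.19 and 0.017 ± 0.45 in FLX and SUN.

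The 30 supernumerary subunits of complex I surround the core and serve its assembly and stability. Of them 19 (63.3%) were negative in FLX and 18 (60%) in SUN, against 49.2% and 49.0% of all genes. NDUFA10, a matrix-side subunit related to nucleoside kinases, was low in nearly every pool. It read −0.25, −0.24, −0.16 and −0.12 in FLX and −0.29, −0.24, 0.030 and −0.28 in SUN. Means were −0.19 ± 0.064 and −0.20 ± 0.15, and 7 of 8 pools, which share 4 CAN samples, were below 0. At least 7 of 8 were below 0 for 6 subunits (7.5%) and 5.23% of all genes. Limma gave unadjusted p of 0.0142 and 0.0127, and adjusted p of 1.00 and 0.799. All 3 of its probes had negative means in both diets. One probe read −0.47, −0.25, −0.087 and 0.13 in FLX (SD 0.25). The others had FLX SDs of 0.037 and 0.084, so the narrow FLX spread held for these but not for every probe.

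NDUFS6, a zinc-binding subunit added late in assembly, read −0.70, −0.44, 0.041 and −0.20 in SUN (−0.32 ± 0.32, limma unadjusted p 0.0133) and −0.13, −0.025, −0.14 and −0.093 in FLX (−0.097 ± 0.053). NDUFA8, an intermembrane-space subunit with paired cysteine motifs, was lower in SUN pools 1 and 2 than in any other pool, at −0.88, −0.68, 0.18 and −0.091. Its means were −0.30 ± 0.22 in FLX and −0.37 ± 0.50 in SUN. On the positive side in SUN stood NDUFA9, a subunit related to short-chain dehydrogenases, with 0.26, 0.020, 0.34 and 0.22 (0.21 ± 0.14, limma unadjusted p 0.0316). In FLX it averaged 0.012 ± 0.20. NDUFV3, an accessory subunit of the NADH-oxidising module, had 0.47, 0.42, 0.032 and 0.055 (0.25 ± 0.23, limma unadjusted p 0.0211), high in pools 1 and 2 only.

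NDUFA1, a small membrane subunit needed for assembly, had the widest range of any member over the 8 pools. Its FLX values of 0.069, 0.93, −0.77 and −0.72 spanned both extremes, and its 2 probes gave the same picture, with 0.99 and 0.86 in pool 2 and −0.78 and −0.75 in pool 3. The mean was −0.12 ± 0.80, so no direction could be read from it. NDUFB10 and NDUFA13 also varied widely, with NDUFB10 at −0.029, 0.58, 0.69 and −0.58 in SUN. Averages of the remaining supernumerary subunits ran from −0.25 (NDUFB8) to 0.18 (NDUFB10) in FLX, and from −0.33 (NDUFB3) to 0.17 (NDUFB10) in SUN.

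Complex II, succinate dehydrogenase, joins the tricarboxylic acid cycle to the chain. SDHA, the flavoprotein that oxidises succinate, read −0.19, −0.11, −0.076 and −0.15 in FLX, a mean of −0.13 ± 0.051 with limma unadjusted p 0.0171 and adjusted p 1.00. All FLX pools were slightly low. In SUN it read −0.057, −0.11, 0.032 and −0.077 (−0.053 ± 0.061). Its 2 probes did not move together, however: over the 8 pools they correlated at −0.66, and each had a pool above 0 in FLX. SDHB, the iron-sulphur subunit, read −0.59, −0.26, 0.20 and 0.011 in FLX and −0.22, 0.24, 0.41 and 0.13 in SUN, with means of −0.16 ± 0.34 and 0.14 ± 0.26. Of the membrane anchors, SDHC read −0.11, 0.42, 0.69 and −0.017 in FLX and 0.045, 0.40, 0.27 and 0.26 in SUN, with means of 0.24 ± 0.37 and 0.24 ± 0.15. Both SDHC probes gave like values (r = 0.95 over 8 pools). SDHD stood at 0.020 ± 0.14 and 0.045 ± 0.25, within its spread.

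Complex III hands electrons from ubiquinol to cytochrome c. Limma gave none of its 8 genes an unadjusted p under 0.05. The core proteins UQCRC1 and UQCRC2, which form its matrix part, stood on opposite sides of 0. UQCRC1 averaged −0.25 ± 0.36 in FLX and −0.25 ± 0.34 in SUN, and UQCRC2 0.32 ± 0.34 and 0.17 ± 0.49. UQCRC2 was highest in pool 1 of each diet, at 0.64 and 0.85, where most other subunits were low. CYC1, the haem protein cytochrome c1, averaged −0.072 ± 0.20 and −0.082 ± 0.21. One CYC1 probe read −0.66, −0.33, 0.29 and 0.11 in FLX, and the other stayed between −0.087 and 0.050 there. The hinge protein UQCRH had the narrowest SUN spread of the complex, 0.12, 0.070, 0.20 and 0.0015 (0.098 ± 0.083). The small subunits UQCR10 and UQCRQ were high in SUN replicate 3, at 0.67 and 0.65.

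Complex IV, cytochrome c oxidase, reduces oxygen to water, and several of its nuclear subunits exist as isoforms. COX8A, the isoform found in most tissues, had the highest SUN mean of all 80 genes. It read 0.73, 0.71, 0.17 and 0.23 in SUN, or 0.46 ± 0.30 (1.38-fold), with limma unadjusted p 0.00299 and adjusted p 0.799. All SUN pools were above 0, and pools 1 and 2 were highest. COX8B, the heart and skeletal muscle isoform, read 0.72, 0.25, 0.24 and 0.54 (0.44 ± 0.23, limma unadjusted p 0.00653). In FLX, COX8A read −0.10, 0.20, 0.29 and 0.26 (0.16 ± 0.18) and COX8B −0.28, 0.13, 0.12 and 0.47 (0.11 ± 0.31), with pool 1 below 0 for each. Both genes had a single probe, and their values depended on dye orientation as given further on.

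COX5B, a zinc-binding subunit, was the single member at an unadjusted p under 0.05 for FLX against SUN. It read −0.56, −0.29, −0.22 and −0.11 in FLX (−0.29 ± 0.19) and 0.23, −0.17, 0.67 and −0.089 in SUN (0.16 ± 0.38). All FLX pools were low, while SUN pools 1 and 3 were high and the ranges overlapped. COX5B had a single probe. Its SUN mean was 0.44 with the diet pool in Cy5 and −0.12 with it in Cy3, and its FLX mean −0.37 and −0.22. With the diet in Cy3 only, limma's unadjusted p for FLX against SUN was not under 0.05. COX6B1, the common isoform on the intermembrane side, had −0.69, −0.42, −0.082 and −0.14 in FLX (−0.33 ± 0.28) and −0.047 ± 0.40 in SUN. Its testis isoform COX6B2 stood at −0.041 ± 0.28 and 0.035 ± 0.20.

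The other isoform sets lay near 0 on average. COX6A1, the common form, varied between pools (−0.43, −0.028, −0.031 and 0.41 in FLX), and its 3 probes did so alike. The muscle form COX6A2 stayed between −0.073 and 0.028 in FLX. COX7A2, the common form, averaged −0.18 ± 0.24 and −0.048 ± 0.33, the muscle form COX7A1 −0.042 ± 0.18 and −0.0031 ± 0.074, and COX7A2L, a factor that joins complexes III and IV, 0.0071 ± 0.21 and −0.070 ± 0.12. NDUFA4, first counted to complex I and now known as a subunit of complex IV, ranged from −0.54 in FLX replicate 1 to 0.64 in SUN replicate 3. NDUFA4L2, its paralogue known from hypoxic cells, never left −0.073 to 0.012. Whether its probe lay above background is unknown.

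COX5A, whose product sits on the matrix side, showed how far the choice of probe could matter. It averaged −0.0060 ± 0.11 in FLX and −0.076 ± 0.12 in SUN over 4 probes. One probe was below 0 in all 8 pools and read −0.24, −0.62, −0.34 and −0.40 in SUN, while the others had SUN means of −0.021, 0.026 and 0.088. NDUFV3 was similar: its probes averaged 0.46 and 0.029 in SUN, and the first reached 1.07 in SUN replicate 2 where the second read −0.23. Of the 32 genes with several probes, 22 had the same sign of the mean for every probe in FLX and 22 in SUN. The correlation of a gene's probes over the 8 pools, a description with no test, had a median of 0.749 over these genes.

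**Figure D2:**
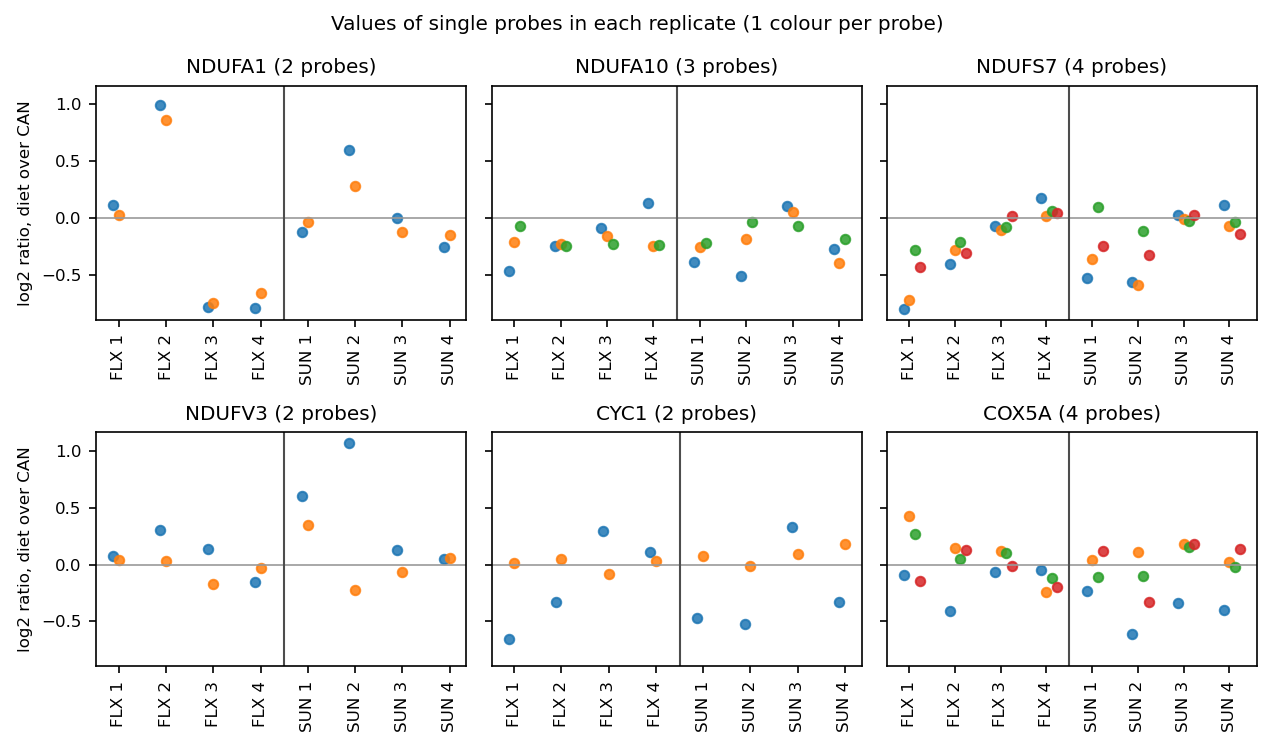
Log2 ratio of diet over CAN (vertical axis) of each probe of 6 genes in the 4 FLX and 4 SUN pools, with 1 colour per probe. The NDUFA1 probes lie close together, whereas the NDUFS7 probes run from −0.53 to 0.10 in SUN 1. In addition, 1 COX5A probe is below 0 in every pool and 1 NDUFV3 probe is high in SUN 1 and SUN 2.

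ATP synthase has a catalytic F1 head, a rotating ring of c subunits, a peripheral stalk and small membrane subunits. ATP5F1B, the catalytic β subunit, was above 0 in all 8 pools, which share 4 CAN samples, as were 0.743% of all genes and no other subunit. It read 0.056, 0.37, 0.46 and 0.11 in FLX (0.25 ± 0.20, 1.19-fold) and 0.13, 0.45, 0.43 and 0.15 in SUN (0.29 ± 0.18, 1.22-fold). In each diet pools 2 and 3 were highest. Limma gave unadjusted p of 0.0215 and 0.0102 and adjusted p of 1.00 and 0.799. Its α partner ATP5F1A averaged 0.093 ± 0.19 and 0.14 ± 0.13. The subunits of the central stalk were negative by mean in both diets, with ATP5F1C (γ) at −0.092 ± 0.22 and −0.044 ± 0.22, ATP5F1D (δ) at −0.11 ± 0.26 and −0.23 ± 0.27, and ATP5F1E (ε) at −0.10 ± 0.35 and −0.066 ± 0.35. F1 subunits are present in fixed proportion in the enzyme, and their mean RNA ratios stood on both sides of 0 within each diet.

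The c ring is built from 1 mature protein encoded by 3 genes that differ in the import sequence. ATP5MC2 had the highest FLX mean of the 80 genes, 0.33 ± 0.41, and 0.34 ± 0.38 in SUN. This rested mainly on pool 2, with 0.82 in FLX and 0.89 in SUN. ATP5MC1 read −0.61, −0.10, 0.11 and 0.39 in FLX (−0.055 ± 0.42) and 0.066, 0.18, 0.21 and 0.32 in SUN (0.19 ± 0.11), with a wide FLX spread and a narrow SUN one. Its 3 probes did so alike (r from 0.901 to 0.979). ATP5MC3 averaged −0.046 ± 0.30 and −0.076 ± 0.22.

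Among the peripheral stalk genes, ATP5PB (subunit b) and ATP5PD (subunit d) were high in FLX replicate 3, at 0.75 and 0.66. The averages of the 4 stalk genes ran from −0.090 (ATP5PO) to 0.10 (ATP5PB) in FLX and from −0.035 (ATP5PD) to 0.22 (ATP5PF) in SUN. ATP5ME, the small membrane subunit e, which serves dimer formation, had the lowest FLX mean of the 80. It read −0.83, −0.53, 0.27 and −0.64 in FLX (−0.43 ± 0.48) and −0.24, −0.42, 0.76 and −0.40 in SUN (−0.075 ± 0.56). Pool 3 was high and the others low in each diet. The neighbouring membrane subunit f, ATP5MF, was at −0.23 ± 0.26 and −0.098 ± 0.59, and subunit g, ATP5MG, at −0.075 ± 0.29 and 0.056 ± 0.070. DMAC2L, a coupling factor listed by its older symbol ATP5S, is no subunit of the mature enzyme and stood at −0.0018 ± 0.37 and −0.20 ± 0.28.

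**Figure D3:**
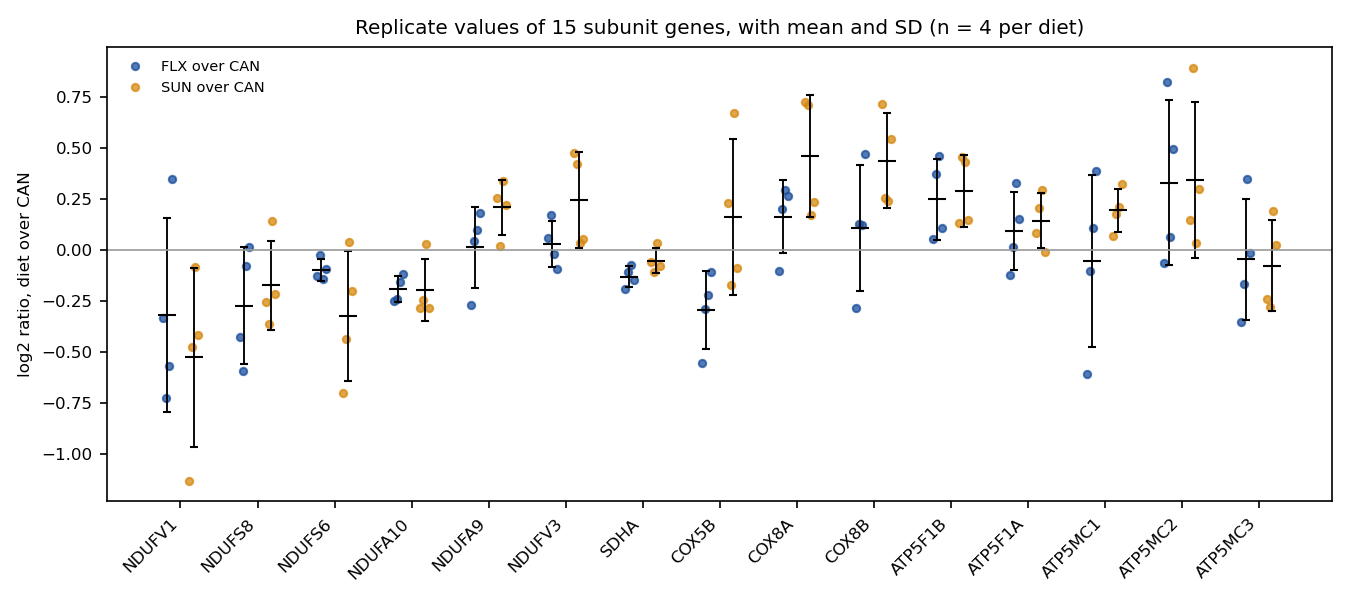
Log2 ratio of diet over CAN (vertical axis) for 15 subunit genes. Points are the 4 FLX (blue) or 4 SUN (orange) pools, and bars show the mean and SD. ATP5F1B is above 0 in all 8 pools, COX8A and COX8B in all 4 SUN pools, and NDUFA10 is below 0 in 7 of 8 pools.

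FLX and SUN were compared through the difference of their ratios, since no array held both. COX5B had the lowest difference of the 80 genes, −0.45 ± 0.45 (SD over same-numbered pools), with limma unadjusted p 0.0421 and adjusted p 1.00. By mean difference 47 subunits were lower in FLX and 33 higher (51.1% of all genes were lower). The subunit median was −0.039 (SD of the 4 same-numbered differences 0.077), against −0.003 over all genes. That median turned to 0.021 without FLX replicate 1 and to 0.048 without SUN replicate 3. Trophectoderm markers had a median on the same side, −0.33 (SD of the 4 same-numbered differences 0.38). Of the 19 measured, 16 were lower by mean in FLX than in SUN (51.1% of all genes). An unadjusted limma p under 0.05 was reached by 2 of them (2.09% of all genes). Cumulus and granulosa markers also had a median on that side (−0.089). Those of inner cell mass and epiblast (0.039), hypoblast (0.016), uterine epithelium and fluid (0.012) and blood (0.0047) lay on the other. The part of these markers in the subunit difference was not tested. At an unadjusted p under 0.05 stood 1 of 80 subunits, against 2.09% of all genes, and limma's FDR called 0 subunits and 0% of all genes. The sign of all 4 same-numbered differences was negative for 6 subunits (7.08% of all genes) and positive for 1 (6.41%). With the pool number as a block, which removes what same-numbered pools share, 5 subunits (6.25%) had an unadjusted p under 0.05, against 5.61% of all genes. They were SDHB at −0.30, ATP5ME at −0.36, COX5B at −0.45, NDUFV3 at −0.22 and NDUFB7 at 0.18, and limma's adjusted p for each was 0.840.

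The subunit median varied more between pools than between diets. The median over the 80 genes was −0.26, −0.029, 0.090 and −0.027 in FLX pools 1 to 4 and −0.18, −0.12, 0.23 and −0.030 in SUN pools 1 to 4. Pool 1 was low in each diet, with 61 of 80 genes negative in FLX and 63 in SUN. SUN replicate 3 was high, with 6 negative, and FLX replicate 3 had 30 negative. Of all 15216 genes, the number negative on a single array ran from 7138 (SUN 1, diet in Cy3) to 7929 (FLX 3, diet in Cy5). Since same-numbered pools shared a CAN sample, a low diet pool and a high CAN pool cannot be told apart. The typical SD of a subunit between pools was 0.25 in FLX and 0.27 in SUN, against 0.14 and 0.15 over all genes (medians).

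Complex V swung most in FLX and complex III in SUN. Complex V medians were −0.36, −0.076, 0.23 and 0.14 in FLX pools 1 to 4, and complex III medians −0.19, −0.27, 0.29 and −0.082 in SUN. Complex I medians were −0.25, 0.017, 0.0038 and −0.070 in FLX and −0.26, −0.080, 0.21 and −0.14 in SUN. Complex II departed from the others in SUN pools 2 and 4, where its median was 0.25 and 0.19 while complexes I and III were negative. Genes for cytosolic ribosomal proteins, 68 measured, had medians of −0.41, −0.024, −0.15 and 0.20 in FLX and −0.28, 0.11, 0.0056 and 0.072 in SUN. They were also lowest in pool 1, but not high in pool 3. Mitochondrial ribosomal proteins, 77 measured, stood at −0.091, −0.037, 0.044 and 0.0090 in FLX and −0.16, −0.11, 0.19 and −0.064 in SUN.

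**Figure D4:**
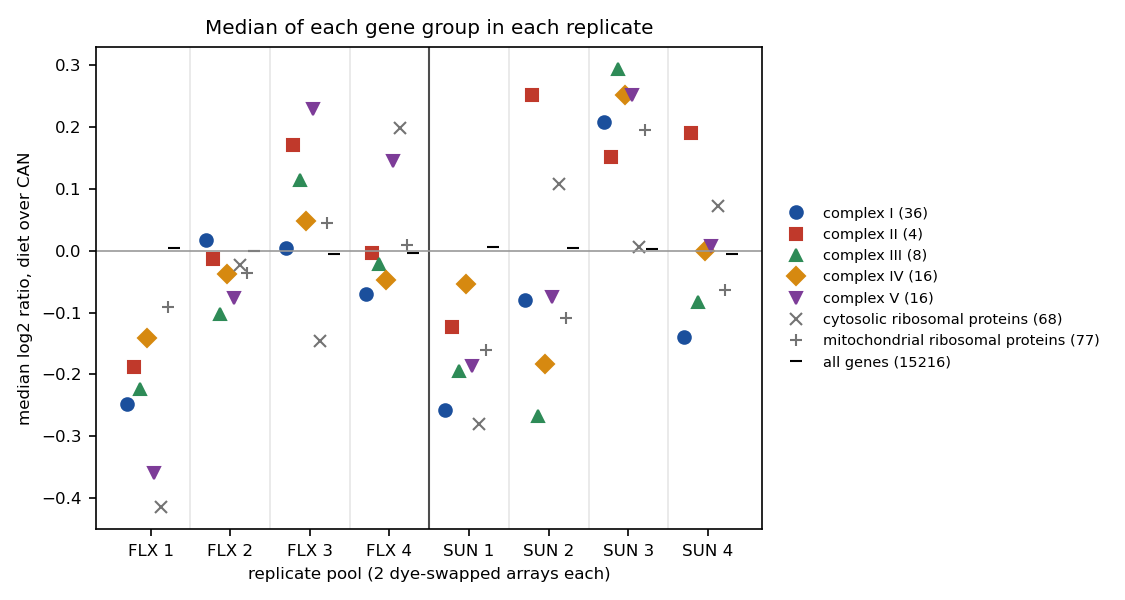
Median log2 ratio of diet over CAN (vertical axis) of each complex, of ribosomal protein genes and of all genes in each pool (gene numbers in parentheses). All 5 complexes are below 0 in FLX 1 and SUN 1 and above 0 in FLX 3 and SUN 3, while the median of all genes stays within 0.01 of 0.

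Subunits tended to vary together between pools. After removal of each diet's mean, the correlation of 2 subunits over the 8 pools had a median of 0.327, against 0.595 for cytosolic ribosomal proteins, 0.247 for mitochondrial ribosomal proteins and 0.000246 for all genes. These points share arrays and, by pool number, CAN samples, so the values are descriptions. NDUFA4, UQCR10, NDUFA7 and CYC1 followed the median of the other subunits most closely (r from 0.941 to 0.979). The 2 CYC1 probes, however, correlated at −0.17 with each other over the 8 pools. Of the 80 genes, 53 had an r over 0.5 with the median of the others and 10 an r under 0. Shares over all genes were not computed for this median. NDUFV3 at −0.64, COX7A1 at −0.53 and ATP5PF at −0.47 ran most against it, and COX8A, UQCRC2, NDUFA1 and ATP5MC2 were also below 0.

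Leaving out SUN replicate 3, the pool in which subunits were highest, changed the SUN picture most. The SUN median over members moved from −0.017 to −0.11, and 18 of 80 subunits had an unadjusted p under 0.05, against 11.2% of all genes. NDUFS6 then stood at −0.45 and NDUFA8 at −0.55. Without SUN replicate 1 the count was 4 (5%, against 5.21% of all genes) and without SUN replicate 2 it was 5 (6.25%, against 3.86%). Without FLX replicate 4 the FLX count was 8 (10%, against 5.18%). Limma's FDR called no gene in any of these fits.

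The dye orientation moved with the subunit values. With the diet pool in Cy5, the median over the 80 genes was −0.19 in FLX and −0.081 in SUN, with 63 and 54 genes negative. With the diet pool in Cy3 it was 0.036 and 0.035, with 31 and 34 negative. Of all 15216 genes, 7789 in FLX and 7641 in SUN were negative with the diet in Cy5, and 7621 and 7147 with it in Cy3. In all 8 pools the subunit median was lower on the array with the diet in Cy5, by 0.065 to 0.35. By complex this held in 8 of 8 pools for complex I, 7 for IV and V, 5 for III and 3 for II. For all genes the gap did not exceed 0.026, but all array medians lay near 0, which kept that gap small in advance. For cytosolic ribosomal proteins the gap, Cy5 minus Cy3, ran from −0.28 to 0.10, with 4 of 8 pools lower in Cy5. For mitochondrial ones it ran from −0.077 to 0.053, with 6 of 8 lower. A lower value with the diet in Cy5 in all 8 pools was found for 18 subunits (22.5%), against 6.87% of all genes, 10.3% of cytosolic and 7.79% of mitochondrial ribosomal protein genes. Averaging a dye-swapped pair cancels a shift tied to the dye only where the shift is equal on both arrays, which was not tested. Before turning, the 2 arrays of a pair correlated at −0.62 to −0.17 over probes. Values not given by orientation are such averages.

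Several of the leading subunits differed between orientations. COX8B read −0.37 in FLX with the diet in Cy5 and 0.59 with it in Cy3, and in SUN 0.11 and 0.77. COX8A read −0.19 and 0.51 in FLX. ATP5F1A went the other way in SUN, with 0.52 and −0.24. NDUFA10 kept its sign but was lower with the diet in Cy5 in 7 of 8 pools, at −0.26 and −0.12 in FLX and −0.29 and −0.10 in SUN, and with the diet in Cy3 only it was not at an unadjusted p under 0.05 in either diet. ATP5F1B gave 0.28 and 0.22 in FLX and 0.30 and 0.28 in SUN. With the diet in Cy3 only, its unadjusted limma p was under 0.05 in SUN but not in FLX. SDHA read −0.22 and −0.042 in FLX, and NDUFS8 −0.40 and −0.14. Neither was at an unadjusted p under 0.05 in FLX with the diet in Cy3 only. The sign of the mean was the same in both orientations for 30 of 80 subunits in FLX (37.5%, against 42.3% of all genes) and for 42 in SUN (52.5%, against 47.2%).

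Counts from a single orientation therefore differed from those of the averages. With the diet in Cy5 only, 27 of 80 subunits had an unadjusted limma p under 0.05 in FLX (12.5% of all genes) and 16 in SUN (13.8%). With the diet in Cy3 only there were 7 in FLX (6.75%) and 13 in SUN (13.0%). The share among subunits in FLX was thus 33.8% in one orientation and 8.75% in the other. The cause was not tested.

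**Figure D5:**
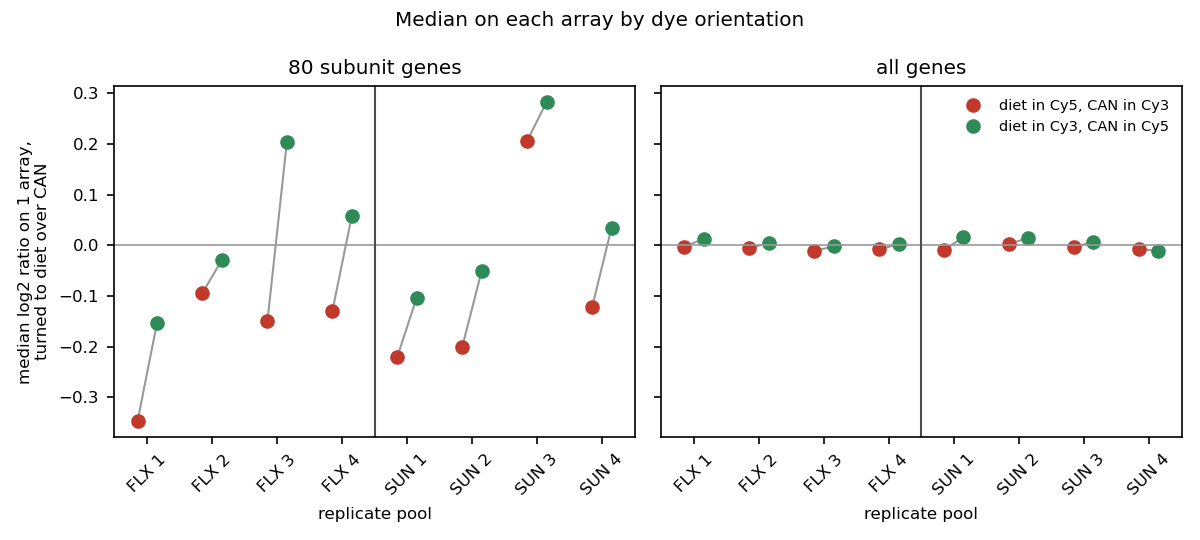
Median log2 ratio, turned to diet over CAN (vertical axis), on each of the 16 arrays, for the 80 subunit genes (left) and all genes (right). Red points have the diet pool in Cy5 and green points in Cy3, and a line joins the arrays of 1 pool. Each red point of the subunits lies below its green partner. The medians of all genes stay near 0, as the medians of the arrays themselves did.

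Genes that serve the same pathway were read from fixed lists. Of 55 assembly factors 37 were measured, with medians of −0.022 in FLX and −0.024 in SUN. Limma's unadjusted p was under 0.05 for 0 of them in FLX (3.15% of all genes) and 4 in SUN (10.8%, against 6.18% of all genes), and its FDR called 0. SCO2, a copper chaperone of complex IV, stood at −0.19 ± 0.16 and −0.25 ± 0.25, COX15, which makes haem A, at 0.21 ± 0.12 and 0.12 ± 0.29, and ATPAF2, an assembly factor of the F1 head, at 0.026 ± 0.13 and −0.18 ± 0.086. Of 17 measured genes for electron carriers and coenzyme Q synthesis, 1 in FLX (5.88%, against 3.15% of all genes) and 2 in SUN (11.8%, against 6.18%) had an unadjusted p under 0.05. ETFDH, which feeds electrons from fatty acid oxidation into ubiquinone, was at 0.24 ± 0.26 and 0.21 ± 0.18, and COQ9 of coenzyme Q synthesis at −0.13 ± 0.32 and −0.35 ± 0.21.

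The tricarboxylic acid cycle, which supplies NADH and succinate, had mostly positive means. Of 12 measured enzymes 9 were positive in FLX (50.8% of all genes) and 10 in SUN (51%). Their medians were 0.063 and 0.065, within the spread between pools (SD of the replicate medians 0.12 and 0.092). IDH3B, a subunit of NAD-dependent isocitrate dehydrogenase, was the 1 enzyme above 0 in all 8 pools, which share 4 CAN samples (0.743% of all genes), with 0.12, 0.053, 0.41 and 0.31 in FLX (0.23 ± 0.17) and 0.27, 0.14, 0.23 and 0.013 in SUN (0.16 ± 0.11). The malate dehydrogenase MDH2 stood at 0.19 ± 0.14 and 0.089 ± 0.14. Unadjusted p under 0.05 was reached by 2 of the 12 in FLX (3.15% of all genes) and 1 in SUN (6.18%), and limma's FDR called 0.

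Carriers and porins move ATP, phosphate and metabolites across the mitochondrial membranes. VDAC1, the main outer membrane porin, read 0.96, 0.52, 0.28 and 0.081 in FLX (0.46 ± 0.38) and 0.70, 0.63, −0.061 and 0.38 in SUN (0.41 ± 0.35). It was high in pool 1 of each diet, where most subunits were low. SLC25A6, an ADP/ATP carrier, stood at −0.33 ± 0.47 and −0.41 ± 0.21. Of the 12 genes in this list, 2 in FLX and 2 in SUN had an unadjusted p under 0.05 (3.15% and 6.18% of all genes). Among 19 measured regulators of mitochondrial biogenesis it was 1 in FLX, MTERF3 at 0.20 ± 0.17, and 1 in SUN, SSBP1, the mitochondrial single-strand DNA-binding protein, at −0.24 ± 0.25. That is 5.26% of the list in each diet, beside the same shares of all genes. Limma's FDR called none of either list. Probes filed under older symbols fell outside the naming rule: COX4I1 averaged −0.045 ± 0.071 and 0.15 ± 0.13, ATP5IF1, the inhibitor of ATP synthase, −0.13 ± 0.22 and −0.049 ± 0.17, ATP5MJ −0.23 ± 0.22 and 0.036 ± 0.43, and ATP5MK −0.016 ± 0.26 and −0.054 ± 0.31.

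Markers of the blastocyst lineages also differed between pools. Of 20 trophectoderm markers 19 were measured, with medians of −0.12, −0.00075, −0.29 and −0.0042 in FLX pools and 0.10, 0.73, −0.29 and 0.18 in SUN pools. Of 14 markers of inner cell mass and epiblast 13 were measured, with medians of −0.096, 0.0061, −0.050 and 0.14 in FLX and −0.031, −0.26, 0.23 and 0.052 in SUN. The trophectoderm list was low in pool 3 of each diet, where subunits were high, and high in SUN pool 2. Levels of the markers cannot be given from ratios, and their part in the subunit values was not tested.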

How the data were processed

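The deposited file held 1 log2 ratio per probe and array for 16 arrays with 2 dyes each, as the authors normalised them. Scaling and spot filters are not given in the sources used here. Base 2 and the direction Cy5 over Cy3 were assumed. Arrays were turned to diet over CAN, dye swaps were averaged (n = 4 per diet), and probes were averaged per gene. Of the 80 member symbols 17 were updated, and all were in the RefSeq gene table. One limma 3.58.1 model (R 4.3.3) over 8 pools and 15216 genes gave p-values, two-sided and adjusted after Benjamini and Hochberg, with a threshold of 0.05. The fit was tested on simulated data. Each slide held 1 diet, so for FLX vs SUN slide and diet cannot be told apart. Residuals of same-numbered pools correlated at 0.436 to 0.588 over genes, and other pairs at −0.356 to 0.0118. The main model did not use this pairing, so its FLX vs SUN p-values treat the 8 pools as independent. Same-numbered pools were treated as pairs, through the shared CAN samples, in the replicate block fit. The SDs and sign counts of FLX vs SUN differences also used these pairs. The p-values measure the spread between these pools. The members, lists and naming rule (up to 3 genes of smallest p per complex, all of complex II, extremes, isoform sets, core subunits) were chosen with earlier results of these data known. Probe sequences were not used here, so signal shared by near-identical copies cannot be told apart.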

Additional observations from a re-analysis of the deposited data

Results flagged for a closer look

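Among 94 sets of 4 replicate values (named genes, complex medians and the median over members, in each diet), 2 held a value that stood apart from the other 3 by Dixon's 95% criterion, where chance gives about 1 in 20. Both were in SUN replicate 3. ATP5ME read 0.76 there and −0.42 to −0.24 in the other SUN pools. NDUFA10 read 0.030 there and −0.29 to −0.24 in the others. The median over all 80 subunits was also highest in that pool, at 0.23.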

How the results depend on the processing

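The count of genes past the FDR stayed at 0 in FLX vs CAN and FLX vs SUN under every alternative run, and in SUN vs CAN under all but 1: with 16 arrays, a dye term and the pool as a random block, 5 genes passed, none of them a subunit. Subunits at an unadjusted p under 0.05 numbered 4 in FLX vs CAN (shares of all genes under the same setting in parentheses: 3.15%), and 7 with arrays scaled to equal spread (4.8%), 27 with the diet in Cy5 only (12.5%), 7 with it in Cy3 only (6.75%), 12 with 16 arrays and a dye term (4.55%), and 7 with slide as a random block (4.11%). In SUN vs CAN the 8 (6.18%) became 16 (13.8%), 13 (13.0%) and 13 (7.49%) with Cy5 only, Cy3 only and 16 arrays. In FLX vs SUN the 1 (2.09%) became 14 (4.52%) and 2 (4.12%) with Cy5 only and Cy3 only, and 5 (5.61%) with the replicate block. Leaving out each replicate in turn gave 0 genes past the FDR throughout. Subunit counts then ran from 3 to 8 in FLX vs CAN, 4 to 18 in SUN vs CAN and 0 to 4 in FLX vs SUN, with 0 without FLX replicate 1, 2 or 3 or SUN replicate 1. Medians over members ran from −0.083 to 0.0022, −0.11 to 0.025 and −0.079 to 0.048, so their sign depends on single pools: it turned without FLX replicate 1 in FLX vs CAN, without SUN replicate 1 or 2 in SUN vs CAN, and without FLX replicate 1 or SUN replicate 3 in FLX vs SUN. The cause was not tested. The 13 named values at an unadjusted p under 0.05 kept their sign in all 174 alternative values. They were selected by that p in the same arrays that the alternatives reuse, so the kept sign is no independent support. Of 1630 alternative values of the other 110 named values, 60 moved by more than 1 SD, and of 185 of the complex medians 3 did. Unknown spot intensities limit every value.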
